A study of Mus musculus with 12 samples.

Results

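The chemokine Cxcl12 and its receptors Cxcr4 and Ackr3 were followed in sorted cells of mouse embryos with wildtype or mutant ER71. ER71 is the older name of Etv2, an ETS-type transcription factor gene that blood and endothelium need in order to form. A probe set, the group of oligonucleotides that reads out a transcript on the array, was taken as a member where the platform table gave it 1 gene symbol and that symbol was Cxcl12, Cxcr4 or Ackr3 (older name Cxcr7). This gave 3 of 18193 genes and 5 of 45037 probe sets, namely 3 for Cxcl12, 1 for Cxcr4 and 1 for Ackr3. The embryos were at embryonic day 8.0 and came from a mixed C57BL/6 and FVB line named ER71 EYFP, EYFP being a yellow fluorescent reporter protein. The 12 arrays form 4 groups of 3, which cross the genotype (ER71 wildtype or ER71 mutant) with the EYFP sort (positive or negative). They are called wild-type positive, wild-type negative, mutant positive and mutant negative cells. All groups shared the trypsin digest, the cell sorter and 2 rounds of RNA amplification. The labels do not state what drives EYFP, which part of ER71 is altered, or whether the 3 samples of a group were separate embryos or pools, so the p-values cover only how far these samples vary, and that spread may be technical. All values are on the log2 scale of RMA, the array normalization the authors applied. In such bulk samples, fewer cells of a type and less RNA per cell cannot be told apart.

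Cxcl12, also called SDF-1, is a secreted chemokine that binds heparan sulphate in the matrix and draws cells toward its source. Cxcr4 is the G protein-coupled receptor that turns this signal into migration, and it is used by blood progenitors, germ cells, neurons and growing arteries. Ackr3 is an atypical receptor that binds Cxcl12 with high affinity, couples to arrestins and not to G proteins, and takes the ligand up for degradation. Mice without Cxcl12 or Cxcr4 die around birth with defects of blood formation, vessels and heart septum, and mice without Ackr3 have defects of the heart valves and septum.

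The stretches just upstream of the 3 start sites are shown because Etv2 is an ETS factor and the ligand and the scavenging receptor were low in the same group, as the values further on show. They are the 250 bases before each RefSeq start site, build GRCm38.p6, written in the direction of the gene, with capitals marking the ETS core GGAA on either strand (TTCC when on the other).
Cxcl12 (chr6:117168285-117168534, plus strand): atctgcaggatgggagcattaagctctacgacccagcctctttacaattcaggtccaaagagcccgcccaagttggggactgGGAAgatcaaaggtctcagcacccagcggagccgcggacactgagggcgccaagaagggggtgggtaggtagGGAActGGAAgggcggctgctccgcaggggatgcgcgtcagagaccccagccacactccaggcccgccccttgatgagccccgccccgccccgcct
Cxcr4 (chr1:128592300-128592549, minus strand): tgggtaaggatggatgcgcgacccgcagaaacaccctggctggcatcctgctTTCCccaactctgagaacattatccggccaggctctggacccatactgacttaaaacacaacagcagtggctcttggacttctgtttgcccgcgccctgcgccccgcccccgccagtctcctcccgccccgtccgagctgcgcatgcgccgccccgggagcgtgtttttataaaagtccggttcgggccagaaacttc
Ackr3 (chr1:90203730-90203979, plus strand): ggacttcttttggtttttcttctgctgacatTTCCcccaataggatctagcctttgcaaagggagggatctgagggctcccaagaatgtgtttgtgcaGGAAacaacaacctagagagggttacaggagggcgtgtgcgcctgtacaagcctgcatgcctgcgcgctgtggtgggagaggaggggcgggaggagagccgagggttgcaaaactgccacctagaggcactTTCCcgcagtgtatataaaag
The core GGAA occurred 3 times in the Cxcl12 stretch, 1 time in that of Cxcr4 and 3 times in that of Ackr3, against a median of 3 over 32851 promoters of the same length, of which 93.4% held it at least 1 time. Other motifs were searched on both strands. Of those that contain the core, GGAAGT was held by 19.7% of all promoters, ACAGGAA by 7.2% and CCGGAA by 12%. The E-box CANNTG was held by 66.2%, and ACGTG, the core of the hypoxia response element, by 16.6%. None of these letters was in any of the 3 stretches. The search for the bare core was added after those motifs gave no match.

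Etv2 itself, the targeted gene, read 10.73, 10.70 and 11.36 in wild-type positive cells and 7.24 to 7.85 on the other 9 arrays. Markers checked the sorted fractions: the endothelial list (8 genes, mean log2 value per array) lay at 10.12 to 10.31 in wild-type positive cells. It lay at 7.59 to 7.80 in mutant positive cells and at 6.85 to 7.07 in negative cells of both genotypes. Of the 8 endothelial genes, 2 were higher in mutant positive than in mutant negative cells. The blood list (7 genes) lay at 10.42 to 11.04 in wild-type positive cells and at 6.09 to 8.32 in the other groups. In mutant positive cells, the cardiac list (7 genes) lay at 11.46 to 11.82 and the mesenchyme list (8 genes) at 10.93 to 11.08, both above the other groups. Positive cells of both genotypes had lower neural (7.51 to 8.82, against 10.5 to 11.11) and definitive endoderm markers (6.76 to 7.87, against 8.72 to 9.38). Of the 8 definitive endoderm genes, 5 were lower and 1, Sox17, was higher in wild-type positive cells (mean 12.09, against 9.21 in wild-type negative cells). Some arrays stood apart: both wild-type arrays numbered 1 had high Y-linked Eif2s3y (10.81 and 11.23, against 4.11 to 4.53), and mutant positive array 1 had the yolk sac endoderm gene Afp at 11.98, against 5.02 and 4.04 on its partners. The 3′ minus 5′ signal of actin, a sign of RNA integrity, was 1.40 to 1.62 in mutant positive cells and 1.54 to 3.14 in the other groups.

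**Figure D1:**
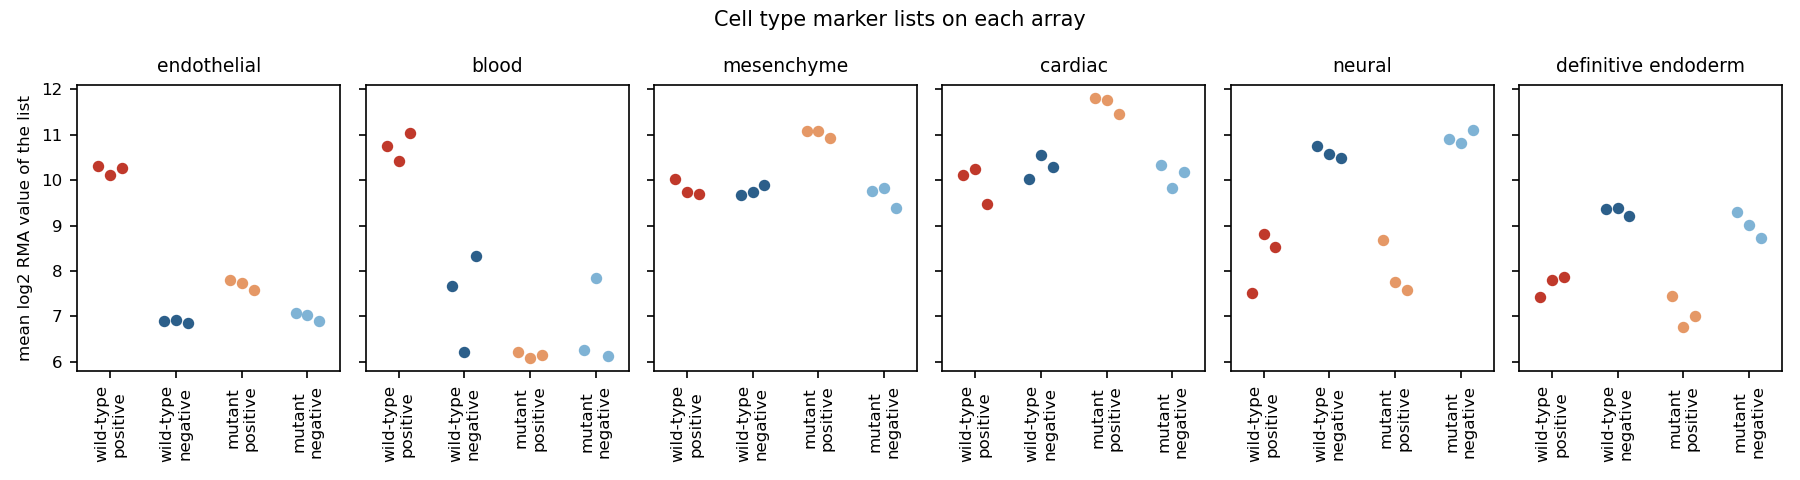
Each point is 1 array, the vertical axis is the mean log2 RMA value of a marker list, and the panels are 6 cell type lists with the 4 groups along the horizontal axis. Endothelial and blood lists are highest in wild-type positive cells, mesenchyme and cardiac lists in mutant positive cells, and neural and endoderm lists in negative cells of both genotypes.

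Cxcl12, the ligand, was lowest in wild-type positive cells at both of its brighter probe sets, while its dim probe set showed no such pattern. For the brightest, 1417574_at, the wild-type positive arrays gave 8.55, 8.83 and 8.07, and the wild-type negative arrays gave 9.82, 9.69 and 10.01. The mutant positive arrays gave 9.70, 9.30 and 9.22, and the mutant negative arrays 9.66, 9.34 and 9.39. The 3 wild-type positive arrays thus lay below the other 9. Of the mutant arrays, positive array 1 was the only one to reach above a wild-type negative array. Group means were 9.84 ± 0.16 (SD, n = 3) in wild-type negative, 9.46 ± 0.17 in mutant negative, 9.41 ± 0.26 in mutant positive and 8.48 ± 0.39 in wild-type positive cells, in that order.

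At the second probe set, 1448823_at, the values were 8.69, 7.33 and 8.32 (wild-type positive), 9.83, 9.48 and 9.75 (wild-type negative), 9.19, 9.03 and 8.64 (mutant positive), and 9.64, 9.16 and 8.72 (mutant negative). The order of the 4 group means was the same as at the first probe set, but wild-type positive array 1 reached above mutant positive array 3, so those groups overlapped. Within wild-type positive cells the 2 probe sets also ranked the arrays differently, since array 2 was the highest at 1417574_at and the lowest at 1448823_at. The third, 1439084_at, stayed between 6.25 and 6.59 on all 12 arrays, below the array medians of 6.98 to 7.06 and above the 25th percentiles of 5.62 to 5.69, and its groups overlapped throughout.

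**Figure D2:**
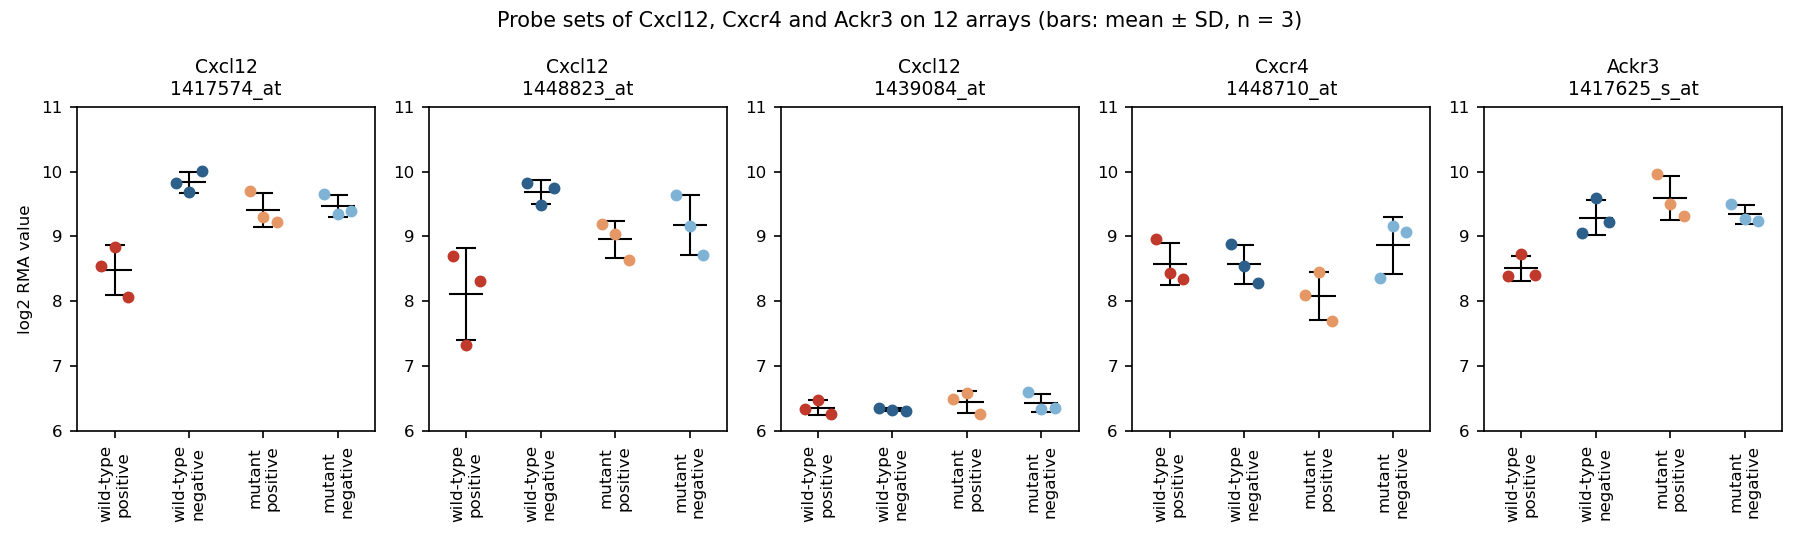
Each point is 1 array, the vertical axis is the log2 RMA value, bars give the mean ± SD of 3 arrays, and the panels are the 5 probe sets. Wild-type positive arrays are the lowest at Cxcl12 1417574_at (8.07 to 8.83) and at Ackr3 (8.38 to 8.74), while Cxcr4 groups overlap.

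The wild-type sort, positive against negative cells of wild-type embryos, shows which members go with EYFP where Etv2 is intact. Cxcl12 fell in positive cells by 1.36 ± 0.20 log2 at 1417574_at (SE; 95% interval -1.79 to -0.92; 2.56-fold lower; limma, adjusted p = 0.00222). At 1448823_at it fell by 1.57 ± 0.33 (2.97-fold lower; adjusted p = 0.0189), and at the dim probe set the difference was 0.03 ± 0.11 (adjusted p = 0.949). Including Ackr3, 3 of the 5 probe sets passed, all lower, against 4.48% of all probe sets that passed in either direction and 1.72% that were lower. The arrays of both groups did not overlap at 3 of 5 probe sets, against 21.2% of all probe sets. The call at 1417574_at held in all 25 alternative settings run (adjusted p up to 0.0332). That at 1448823_at was lost without wild-type negative array 1 or 3 (adjusted p = 0.0791 and 0.0721) and with only these 2 groups in the fit (0.0507). The lists of endothelial markers (8 of 8 higher in wild-type positive cells) and blood markers (6 of 7 higher) were highest on the same 3 arrays on which Cxcl12 and Ackr3 were lowest, and their part in these differences was not tested.

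The same wild-type positive arrays serve in the test of the reporter-positive fraction between genotypes, where Cxcl12 was higher in the mutant at its brightest probe set. At 1417574_at it rose by 0.92 ± 0.20 log2 (95% interval 0.49 to 1.36; 1.9-fold; limma, adjusted p = 0.0234), with every mutant array above every wild-type one. At 1448823_at the difference was 0.84 ± 0.33 (adjusted p = 0.203) and at the dim probe set 0.09 ± 0.11 (adjusted p = 0.758). With Ackr3, 2 of 5 probe sets passed, both higher, against 2.08% of all probe sets that were higher and 4.42% that passed in either direction, and 2 of 5 did not overlap, against 21.8%. Leaving out positive array 1 or 3 of the wild types (adjusted p = 0.0534 and 0.062) or positive array 1 or 2 of the mutants (0.0861 and 0.052) ended the call at 1417574_at, as did a fit without both wild-type arrays numbered 1 (0.0855) and a fit with only these 2 groups (0.12), with a difference of 0.72 to 1.10 when single arrays were left out. The mean over all Cxcl12 probe sets, the dim one included, gave 0.62. Between these groups the cardiac (7 of 7) and mesenchyme markers (5 of 8) were higher and the endothelial (7 of 8) and blood markers (7 of 7) lower in the mutant, and their part in the Cxcl12 and Ackr3 differences was not tested.

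In the mutant sort, positive and negative cells differed in Cxcl12 by -0.06 ± 0.20 log2 at 1417574_at (95% interval -0.49 to 0.38; limma, adjusted p = 0.973) and by -0.22 ± 0.33 at 1448823_at (adjusted p = 0.913). Here 0 of 5 probe sets of the axis passed with limma, 1 of 5 (Cxcr4) had an unadjusted p under 0.05, and 0 of 5 passed in any other setting run. The arrays did not overlap at 0 of 5, against 16.1% of all probe sets. Of all probe sets, 2.62% passed, 1181 in number, or 1848 when same-numbered arrays were blocked as pairs. Between mutant and wild-type negative cells, Cxcl12 differed by -0.38 ± 0.20 at 1417574_at (95% interval -0.81 to 0.06; adjusted p = 0.976), although the highest mutant array, 9.66, lay just under the lowest wild-type one, 9.69. That made 1 of 5 probe sets without overlap, against 10.9% of all. In this comparison 0 of 45037 probe sets passed with limma, and 2119, or 4.71%, had an unadjusted p under 0.05. Of the neighbours in the order of levels at 1417574_at, only mutant positive and wild-type positive cells thus differed past the threshold, and at 1448823_at no neighbours did.

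Ackr3, the scavenging receptor, was also lowest in wild-type positive cells, at its single probe set 1417625_s_at, where the suffix marks probes that can match more than 1 transcript. Wild-type arrays gave 8.38, 8.74 and 8.41 (positive) and 9.05, 9.59 and 9.23 (negative), and mutant arrays 9.97, 9.50 and 9.32 (positive) and 9.51, 9.27 and 9.24 (negative). All 3 wild-type positive arrays lay below the other 9, and the 3 other groups overlapped one another. In order, the group means were 9.60 ± 0.34 (SD, n = 3) in mutant positive, 9.34 ± 0.15 in mutant negative, 9.29 ± 0.27 in wild-type negative and 8.51 ± 0.20 in wild-type positive cells.

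Mutant positive cells had 2.12-fold more Ackr3 signal than wild-type positive cells, a rise of 1.09 ± 0.19 log2 (95% interval 0.67 to 1.5; limma, adjusted p = 0.00792). This call was lost in 1 of 24 other settings, with only these 2 groups in the fit (adjusted p = 0.0513). In wild types, Ackr3 fell in positive cells by 0.78 ± 0.19 (95% interval -1.20 to -0.37; 1.72-fold lower; adjusted p = 0.0411), and every positive array was below every negative one. That call lay close to the threshold: it was lost in 13 of 25 settings, among them when any negative array of either genotype, positive array 1 or 3 of the wild types or positive array 2 of the mutants was left out (adjusted p from 0.0506 to 0.161), while the difference stayed between -0.90 and -0.63. Mutant positive and negative cells differed by 0.26 ± 0.19 (95% interval -0.16 to 0.67; adjusted p = 0.729) and the negative cells of both genotypes by 0.05 ± 0.19 (95% interval -0.37 to 0.47; adjusted p = 0.997).

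Cxcr4, the signalling receptor, did not pass in any of the 5 comparisons. Its probe set 1448710_at gave 8.95, 8.43 and 8.34 on the positive and 8.88, 8.55 and 8.28 on the negative arrays of the wild types, nearly the same range. In mutants, positive arrays gave 8.09, 8.44 and 7.70 and negative arrays 8.36, 9.16 and 9.07. The means ran from 8.86 ± 0.44 (SD, n = 3) in mutant negative through 8.57 ± 0.33 in wild-type positive and 8.57 ± 0.30 in wild-type negative to 8.08 ± 0.37 in mutant positive cells, and each neighbouring pair overlapped. The wild-type sort difference was 0.00 ± 0.27 log2 (95% interval -0.58 to 0.59; limma, adjusted p = 0.998). In mutants the difference between positive and negative cells was -0.79 ± 0.27 (95% interval -1.37 to -0.20; unadjusted p = 0.0134, adjusted p = 0.214). With same-numbered positive and negative arrays of both genotypes blocked as pairs it was -0.79 ± 0.19 and did not pass (limma, fixed block, adjusted p = 0.0719). That fit took its spread from the wild-type arrays as well, so the SE is not one of the mutant pairs alone. The mutant pairs 1, 2 and 3 differed by -0.26, -0.72 and -1.37, and the wild-type ones by 0.07, -0.12 and 0.06. Mutant positive cells differed from wild-type positive cells by -0.50 ± 0.27 (adjusted p = 0.375). Neural markers (6 of 6 lower in the mutant sort), cardiac markers (6 of 7 higher) and mesenchyme markers (5 of 8 higher) moved between mutant positive and negative cells. In the wild-type sort 5 of 6 neural markers were also lower, 0 of 7 cardiac markers passed and 2 of 8 mesenchyme markers were lower. The part of these cell types in the Cxcr4 values was not tested.

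**Figure D3:**
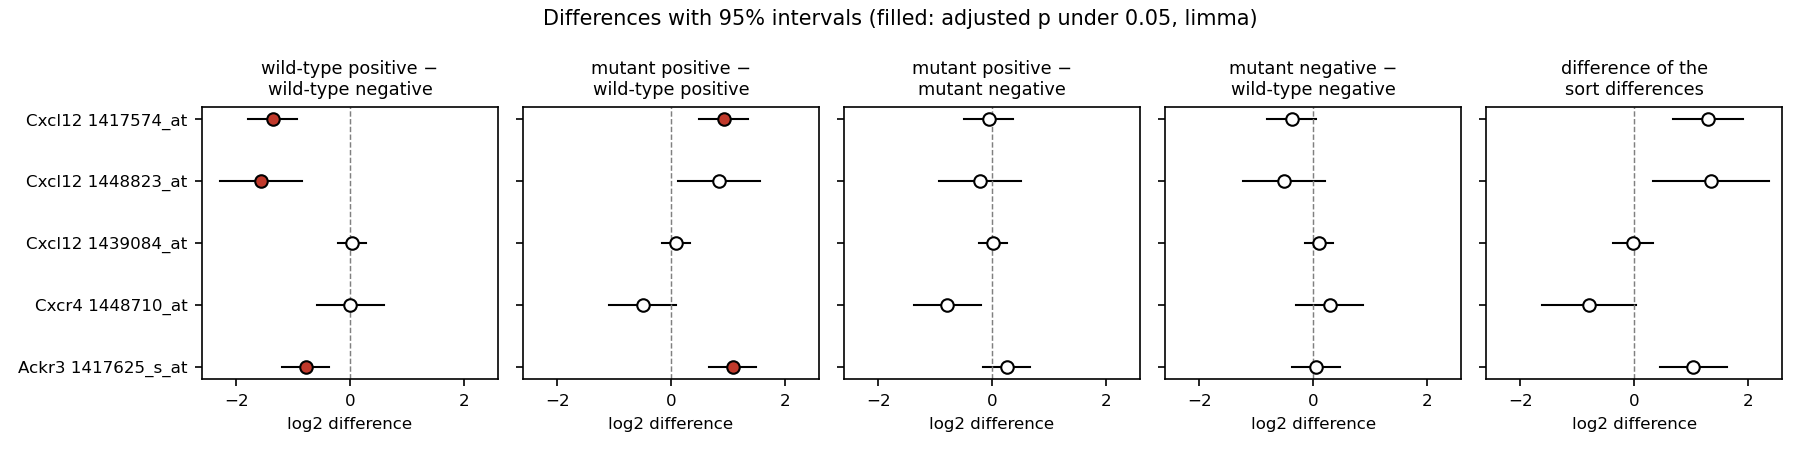
Points are log2 differences of the 5 probe sets in the 5 comparisons, lines are 95% intervals from limma, and filled points passed an adjusted p of 0.05. Filled points appear in 2 panels, the wild-type sort (3 probe sets, below 0) and mutant against wild-type positive cells (2 probe sets, above 0).

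Whether the sort difference depended on genotype was tested directly, by subtracting the wild-type sort difference from the mutant one. For Cxcl12 it was 1.30 ± 0.28 log2 at 1417574_at (limma, unadjusted p = 0.000715, adjusted p = 0.0543) and 1.35 ± 0.46 at 1448823_at (adjusted p = 0.297). Ackr3 gave 1.04 ± 0.27 (unadjusted p = 0.00259, adjusted p = 0.12) and Cxcr4 -0.79 ± 0.38 (adjusted p = 0.552). None of the 5 passed, against 1.27% of all probe sets, while 3 of 5 had an unadjusted p under 0.05, against 9.65% of all. For Cxcl12 1417574_at the test passed in 6 of 24 settings, including 1 probe set per gene (adjusted p = 0.0307), pairs as a random block (0.0206; 0.0608 with a fixed block, which did not pass) and without wild-type positive array 2 (0.022). For Ackr3 it passed in 2 of 24, both with positive-negative pairs as a block (0.0176 with fixed and 0.0293 with random pairs).

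Over the 12 arrays, the brighter Cxcl12 probe sets correlated at r = 0.752, and Cxcl12 1417574_at correlated with Ackr3 at 0.783 and with Cxcr4 at -0.043. These values are descriptions, since the arrays fall into 4 groups. After subtracting group means, the 2 Cxcl12 probe sets correlated at -0.035 and Cxcl12 1417574_at with Ackr3 at 0.545. The first of these rests on wild-type positive cells, where array 2 was the highest at 1 probe set and the lowest at the other. In both mutant groups array 1 was the highest at both probe sets, and in wild-type negative cells array 2 was the lowest at both.

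Genes with a similar profile were ranked by Pearson correlation over the 12 arrays among 8872 genes of at least median brightness, again as a description. The 4 closest to Cxcl12 were Dixdc1, a Wnt pathway protein (r = 0.953), Lhx1, a transcription factor of nascent mesoderm and kidney precursors (0.943), Stxbp6 (0.942) and Tceanc (0.939). Dixdc1, for example, averaged 7.95 in wild-type positive, 9.68 in wild-type negative, 9.20 in mutant positive and 9.42 in mutant negative cells. The most opposite were Hrct1 (-0.947) and Dock6, an exchange factor for Rac and Cdc42 (-0.927). Closest to Ackr3 were the centrosomal protein gene Cep44 (0.976), the ciliary transport gene Ift43 (0.943), Ddit4, a stress-induced inhibitor of mTOR signalling (0.941), and Wdr86 (0.937), and most opposite were Fam89a (-0.953) and Frmd4a (-0.939). Ddit4 averaged 8.96 in wild-type positive cells and 10.24 to 10.68 in the others. For Cxcr4 the closest were Zfp1 (0.934), Cep70 (0.911), the neuronal splicing factor Nova1 (0.868) and the kinase gene Csnk1a1 (0.864), and the most opposite Carhsp1 (-0.900) and Rps4l (-0.892). The middle 90% of all genes spanned -0.685 to 0.699 for Cxcl12, -0.682 to 0.731 for Ackr3 and -0.631 to 0.545 for Cxcr4.

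**Figure D4:**
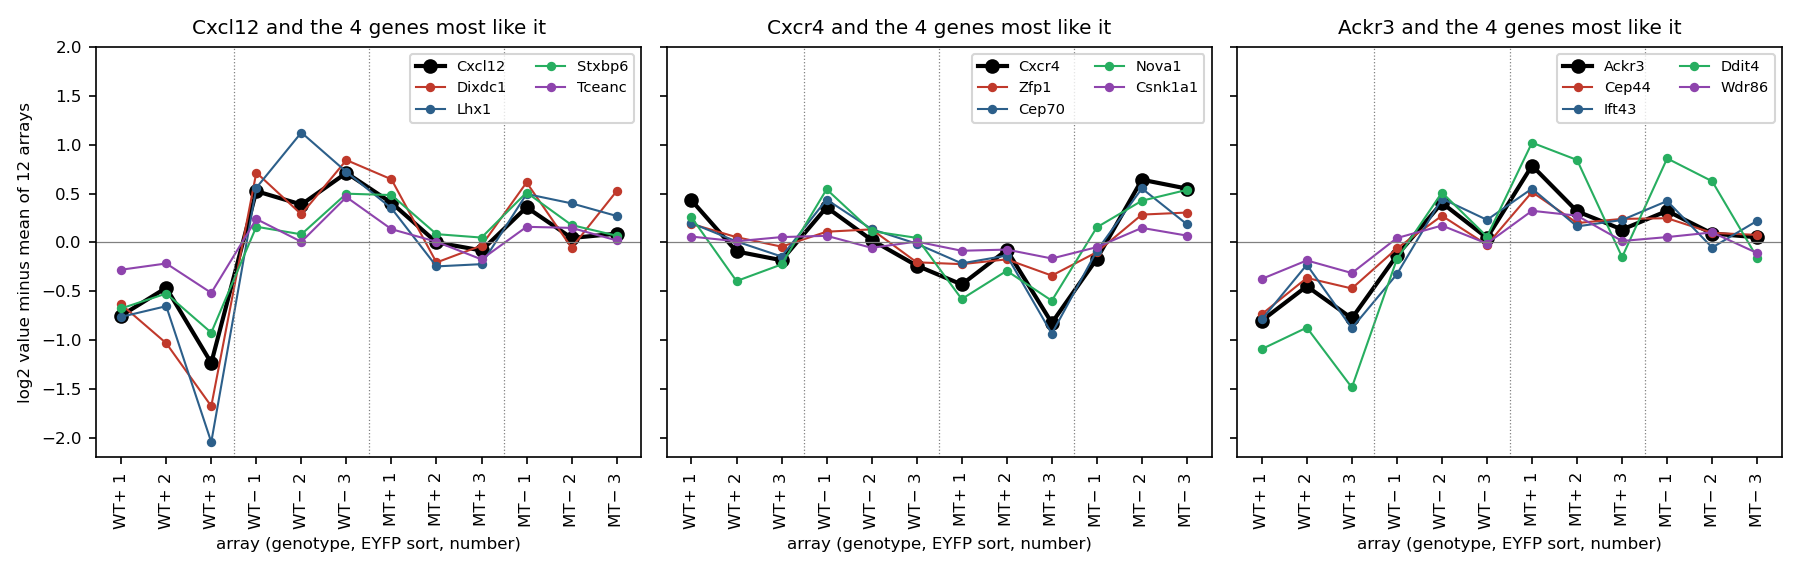
Points are log2 values minus the gene's mean over 12 arrays, along the 12 arrays in their 4 groups, for each member (black) and the 4 genes most correlated with it; lines join points of a gene and imply no order. Cxcl12 and Ackr3 share their low wild-type positive arrays with their 4 closest genes, and Cxcr4 and its closest genes vary within groups.

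The rest of the pathway was read at the brightest probe set of each gene. Of 104 measured genes of 7 lists, 11 were higher and 2 lower in the wild-type sort (12.5%, against 6.49% of all 18193 genes; list median 0.07 log2, all genes -0.02). Mutant against wild-type positive cells gave 3 higher and 6 lower (8.65% against 6.27%; median -0.04 against 0.01), and the mutant sort 8 higher and 1 lower (8.65% against 4.11%; median -0.03 in both). In mutant against wild-type negative cells 0 passed with limma, as over all genes (5 had an unadjusted p under 0.05), and 5 passed in the test of genotype dependence (4.81% against 1.86%). The genes that passed that test include Etv2, the targeted gene, and Vcam1, which is not bound by these receptors. Etv2 was also counted in the wild-type sort, Vcam1 in the mutant sort, and both between positive cells.

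Of 6 measured genes on the list of other ligands, 1, Vcam1, passed between positive cells and in the mutant sort (16.7%, against 6.27% and 4.11% of all genes). Since Vcam1 is not a ligand of these receptors, the 16.7% does not describe ligands. In the wild-type sort 0 passed, against 6.49%. Vcam1, an adhesion protein that is bound by integrins and not by these receptors, rose in mutant positive cells by 1.61 ± 0.23 log2 over wild-type positive cells (limma, adjusted p = 0.00262) and by 2.72 ± 0.23 over mutant negative cells (adjusted p = 0.000343). The mean of its probe sets gave smaller differences, 0.65 and 1.09, which also passed. Adm, which encodes adrenomedullin, a peptide that Ackr3 also takes up, differed by 0.65 ± 0.25 in the wild-type sort and by 0.90 ± 0.25 in the mutant sort (adjusted p = 0.218 and 0.103). Mif, a further Cxcr4 ligand, differed by 0.64 ± 0.26 between mutant and wild-type positive cells (adjusted p = 0.227). Of 11 other CXC chemokines 0 passed with limma in any comparison, with medians from -0.18 to 0.07, and between 0 and 2 had an unadjusted p under 0.05. Over all genes, 0% to 6.49% passed in the same comparisons. Most of these chemokines were dim. The group means of Cxcl2, Cxcl3, Cxcl5, Cxcl9, Cxcl10, Cxcl15, Pf4 and Ppbp ran from 4.08 to 6.20, below the array medians of 6.98 to 7.06. Those of Cxcl1, Cxcl13 and Cxcl16 lay above them.

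Among 18 other chemokine receptors, 1 passed in the wild-type sort and between positive cells (5.56%, against 6.49% and 6.27% of all genes). This was Ackr1, the Duffy antigen receptor found on venules and red cells, and no other passed in any comparison. In the test of genotype dependence Ackr1 passed as well (5.56%, against 1.86%). It read 9.37 to 9.51 in wild-type positive cells and 8.21 to 8.64 on the other 9 arrays. Ackr1 rose by 0.97 ± 0.12 log2 in wild-type positive cells (limma, adjusted p = 0.000853) and fell by 1.14 ± 0.12 in the mutant (adjusted p = 0.000322). The endothelial and blood lists were high in the same 3 arrays, and their part was not tested. The atypical receptors Ackr2 and Ackr4 differed by 0.03 and 0.55 in the wild-type sort (adjusted p = 0.973 and 0.28). Ackr2 was dim, with group means of 6.40 to 6.53, below the array medians.

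Of 24 G protein, receptor kinase, arrestin and RGS genes, 1 passed in the wild-type sort, 2 in mutant against wild-type positive cells and 3 in the mutant sort (4.17%, 8.33% and 12.5%, against 6.49%, 6.27% and 4.11% of all genes). All were higher and all were RGS genes, which shorten G protein signalling. Rgs5, known from pericytes and smooth muscle precursors, rose in mutant positive cells by 2.26 ± 0.40 log2 over wild-type positive (limma, adjusted p = 0.00907) and by 3.05 ± 0.40 over mutant negative cells (adjusted p = 0.00271). The mean of its probe sets gave 1.27 and 1.75. Rgs4 rose by 0.75 ± 0.12 in the first of these (adjusted p = 0.00505) and by 0.60 ± 0.12 in the mutant sort (adjusted p = 0.0271). With only the 2 groups in the fit, the calls of Rgs5 and Rgs4 between positive cells were lost (adjusted p = 0.0852 and 0.0584). The Rgs4 call in the mutant sort was lost in 6 of 25 settings, among them without any mutant negative array or mutant positive array 1 or 2 (adjusted p up to 0.108). Rgs3 rose in the wild-type sort by 0.47 ± 0.09 (adjusted p = 0.0111), which did not pass without wild-type negative array 2 (adjusted p = 0.0529) or both wild-type arrays numbered 1 (0.115). In the mutant sort it rose by 0.38 ± 0.09 (adjusted p = 0.0483), a call lost in 21 of 25 settings, the removal of any of the 12 arrays included (0.0564 to 0.173). The mean of all Rgs3 probe sets gave 0.07 in the mutant sort (limma, adjusted p = 0.811). Arrb2, an arrestin recruited by Ackr3, differed by -0.67 ± 0.27 between mutant and wild-type positive cells (adjusted p = 0.225), and Gnai2, a Gi subunit, by 0.48 ± 0.17 in the wild-type sort (adjusted p = 0.17).

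Downstream, 3 of 19 signalling genes were higher in wild-type positive cells (15.8%, against 6.49% of all genes) and 3 were lower in mutant than in wild-type positive cells (15.8%, against 6.27%). Pxn, the focal adhesion protein paxillin, rose by 0.94 ± 0.12 log2 in the wild-type sort (limma, adjusted p = 0.000895; 0.62 as the mean of its probe sets), a call kept in all 25 settings. Stat3, a transcription factor activated by cytokine receptors, rose by 0.94 ± 0.19 (adjusted p = 0.0151), and Pik3cb, a PI3 kinase subunit, by 0.66 ± 0.16 (adjusted p = 0.0437). These were less firm. Stat3 was lost in 6 of 25 settings, among them without array 1 or 3 of either wild-type group (adjusted p up to 0.0689), and Pik3cb in 13 of 25, among them when any of 10 arrays was left out (up to 0.165). Prex1, a Rac exchange factor driven by G protein subunits and PI3 kinase, fell by 1.15 ± 0.19 in mutant against wild-type positive cells (adjusted p = 0.00663; 0.0635 with only the 2 groups in the fit). Cdc42, a small GTPase of cell polarity, fell by 0.46 ± 0.10 (adjusted p = 0.0202), lost in 7 of 24 settings, among them without positive array 1 or 3 of either genotype (up to 0.0719), with -0.16 as the mean of its probe sets. Pxn fell by 0.49 ± 0.12 (adjusted p = 0.0445), lost in 16 of 24, among them when any of 9 arrays was left out (up to 0.132), with -0.28 as the mean of its probe sets.

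Proteases and matrix partners of Cxcl12 gave 3 higher and 2 lower of 15 in the wild-type sort (33.3%, against 6.49% of all genes). The mutant sort gave 2 higher and 1 lower (20%, against 4.11%), and mutant against wild-type positive cells gave 0 (against 6.27%). Mmp9, a gelatinase that cleaves Cxcl12, rose by 1.83 ± 0.31 log2 in wild-type positive cells (limma, adjusted p = 0.0061; 1.07 as the mean of its probe sets). Fn1, which encodes the matrix protein fibronectin, rose by 0.88 ± 0.20 in the wild-type sort (adjusted p = 0.0262) and by 1.11 ± 0.20 in the mutant sort (adjusted p = 0.0123). The first was lost in 7 of 25 settings, among them without any wild-type negative array or wild-type positive array 1 or 2 (up to 0.109), and the second in 2 of 25, without mutant negative array 2 (0.052) and with only 2 groups (0.1). Mmp14, a membrane-bound metalloproteinase, rose by 1.22 ± 0.13 in the mutant sort (adjusted p = 0.000998) and by 0.70 ± 0.13 in the wild-type sort (adjusted p = 0.0113). Without wild-type negative array 1 or 3 or both wild-type arrays numbered 1, the second of these calls was lost (adjusted p = 0.0566, 0.0531 and 0.147). The carboxypeptidase genes Cpm and Cpn1, whose products trim the end of the chemokine, fell in wild-type positive cells by 2.18 ± 0.37 and 1.34 ± 0.21 (adjusted p = 0.00615 and 0.00336). The Cpm call was lost without both wild-type arrays numbered 1 (0.051). Cpn1 was dim, with means of 5.66 in wild-type positive, 6.00 in mutant positive, 7.01 in wild-type negative and 7.38 in mutant negative cells. The 25th percentiles of the arrays were 5.62 to 5.69. Definitive endoderm markers were lower in positive cells of both genotypes too, and their part in the Cpn1 values was not tested. Cpn1 also fell in the mutant sort, by 1.38 ± 0.21 (adjusted p = 0.00522; 0.0564 with only the 2 groups, and -0.91 as the mean of its probe sets). Dpp4, which inactivates Cxcl12, differed by -0.19 ± 0.12 in the wild-type sort (adjusted p = 0.52). Its group means, 6.52 to 6.74, lay below the array medians.

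Of 11 transcription factors linked to genes of the axis, 3 were higher in the wild-type sort (27.3%, against 6.49% of all genes). Between positive cells 2 were lower in the mutant (18.2%, against 6.27%), and in the mutant sort 2 were higher (18.2%, against 4.11%). Etv2, the targeted gene, Sox17 and the hypoxia-inducible factor gene Epas1 were higher in wild-type positive cells (by 3.28 ± 0.17, 2.88 ± 0.40 and 2.37 ± 0.34 log2; limma, adjusted p = 1.16e-06, 0.00157 and 0.00192). Epas1 also rose in the mutant sort, by 1.71 ± 0.34 (adjusted p = 0.0221), and the mean of its probe sets gave 1.21 and 0.86 in the wild-type and mutant sorts. This mutant call was lost in 5 of 25 settings, among them without mutant positive array 1 or 2 or mutant negative array 2 or 3 (up to 0.0935). Nr2f2, a factor of veins and mesenchyme, rose in the mutant sort by 0.69 ± 0.16 (adjusted p = 0.0499), a call lost in 16 of 25 settings, among them when any of 10 arrays was left out (up to 0.185), with 0.46 as the mean of its probe sets. Sox17, a factor of arterial endothelium and endoderm, fell in mutant positive cells by 4.21 ± 0.40 (adjusted p = 0.000116). Hif1a, Foxc1 and Foxc2, which are known to act on Cxcl12 or Cxcr4, did not pass in any comparison, with wild-type sort differences of 0.09, -0.41 and -0.27.

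**Figure D5:**
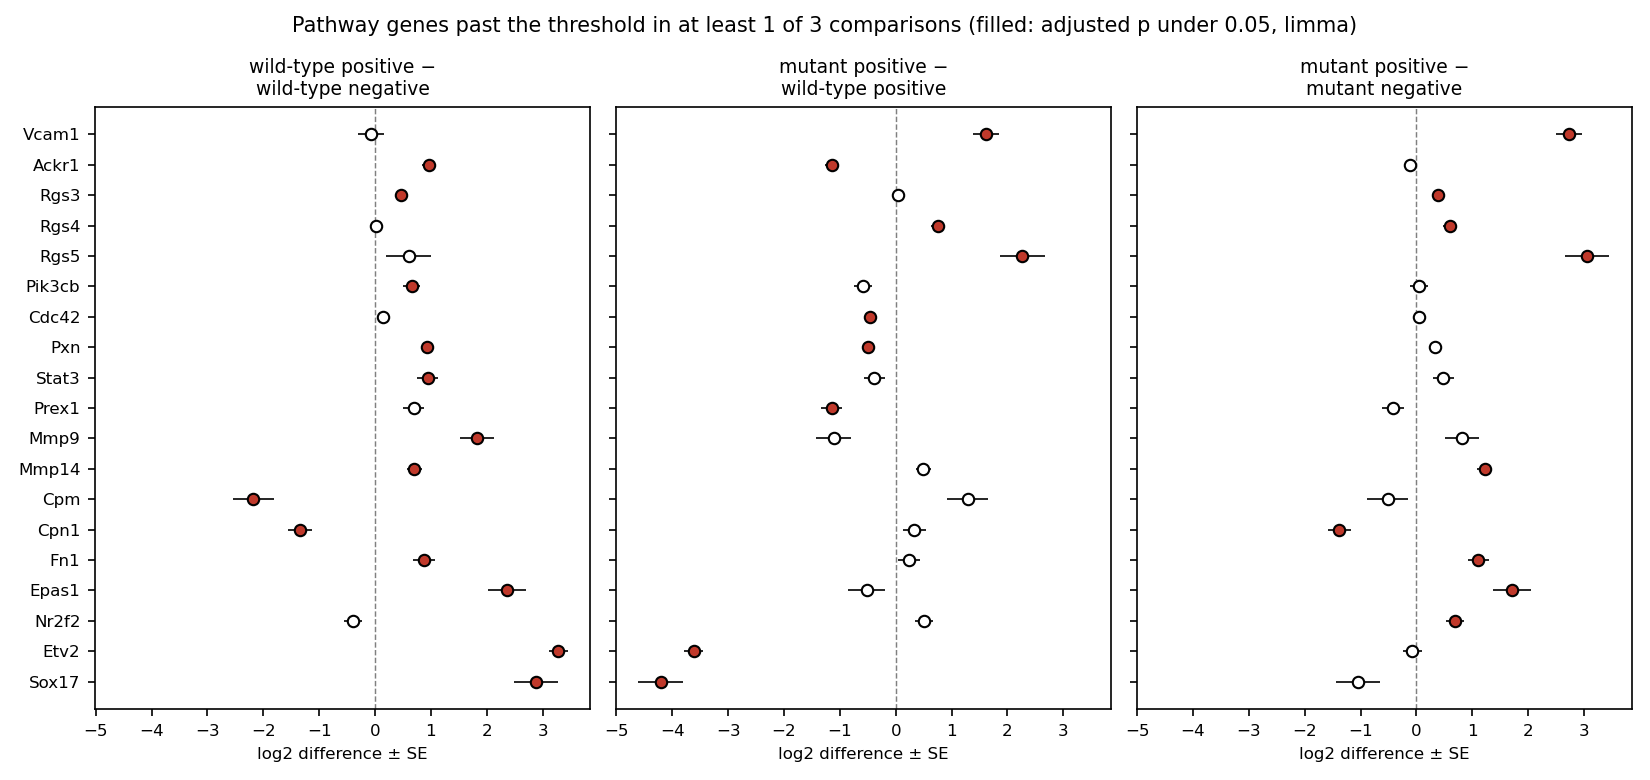
Points are log2 differences with their SE for the pathway genes that passed in at least 1 of 3 comparisons (panels), filled where the adjusted p was under 0.05. Vcam1 and Rgs5 are higher in mutant positive cells, while Ackr1, Sox17 and Etv2 are higher in wild-type positive cells.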

How the data were processed

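The data are 1 table of 12 oligonucleotide arrays with 45101 probe sets. The deposited values are log2 expression values that the authors made with RMA, per the submitters' processing notes; its settings and version were not stated there. They were used as given, without the 64 array controls, with no filter on dim probe sets. The platform table named 34945 of 45037 probe sets with 1 gene symbol, 932 with several, and did not list 9160. All probe sets were fitted in R 4.3.3 by the functions lmFit, contrasts.fit and eBayes of limma 3.58.1, in 1 model of the 4 groups with 8 residual degrees of freedom. P-values are two-sided and adjusted by Benjamini-Hochberg over all 45037 probe sets within a comparison, and an adjusted p under 0.05 passed. The fit was tested on simulated data. Precision is limited by having 3 arrays in a group.

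Members and lists were chosen with earlier results of these data known. The named genes are the members, the 4 most and 2 least correlated genes of at least median brightness per member (clone-type names left out), and pathway genes past the threshold, up to 4 per direction and list, with other list genes named for their known role. Cell type lists were endothelial, arterial, venous, blood, macrophage, cardiac, mesenchyme, definitive endoderm, visceral endoderm, neural and somite markers. Same-numbered positive and negative arrays deviated from their group means together in mutants (r = 0.414 to 0.659 across probe sets, which are not independent), so these numbers were read as pairs. In wild types the values were 0.198, 0.0696 and 0.167, which does not meet the limit of 0.1 for every pair. Fits with a block of pairs still blocked the arrays of both genotypes. Alternatives were other choices of probe set, a filter, scalings, variance models, weights, smaller sets of arrays and blocks. Promoters are from RefSeq, build GRCm38.p6, and all 3 members matched. Gene positions are not given otherwise, because no probe coordinates were used here.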

Additional observations from a re-analysis of the deposited data

Results flagged for a closer look

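For 5 pathway genes the difference between positive and negative cells depended on genotype in limma's test of the difference itself (mutant minus wild type, adjusted over all probe sets). Vcam1 gave 2.79 log2 (adjusted p = 0.00134; 1.10 as the mean of its probe sets), since it was higher in positive cells of mutants and not of wild types. The negative cells also had a part in this value. Vcam1 lay at 6.23 to 6.83 on mutant negative and at 7.55 to 7.80 on wild-type negative arrays, a comparison in which 0 probe sets passed with limma. Nr2f2 gave 1.08 (adjusted p = 0.0487), a call lost in 16 of 24 other settings, including the removal of any single array with 2 exceptions, positive array 2 of the wild types and positive array 3 of the mutants (adjusted p up to 0.129). Ackr1 gave -1.08 (adjusted p = 0.0106), Sox17 -3.93 (0.00508) and Etv2, the targeted gene, -3.36 (3.53e-05), each kept in all 24 settings, as was Vcam1.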

How the results depend on the processing

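Over the brightest probe set of each gene in 5 comparisons, 25 alternative settings gave 366 values, of which 327 kept direction and side of the threshold, 20 lost a call, 8 gained 1 and 11 changed sign, each of these from a difference near 0. Where no cause is named, the cause was not tested. The wild-type sort difference of Ackr3 lost its call with arrays centred on their median (-0.767, adjusted p = 0.0517), an intensity trend (-0.781, 0.0527), only the 2 groups in the fit (-0.781, 0.0581) and without both wild-type arrays numbered 1 (-0.838, 0.136), and ran from -0.900 to -0.632 when single arrays were left out. With only 2 groups, and so fewer arrays, the positive cells' genotype difference lost its call for Cxcl12 (0.924, 0.12) and Ackr3 (1.087, 0.0513); for Cxcl12 it also did without both wild-type arrays numbered 1 (0.957, 0.0855), with 0.715 to 1.099 over single arrays left out. The genotype dependence of Cxcl12 passed with 1 probe set per gene or a filter on dim probe sets (1.300 in both, with fewer features tested), the mean of its probe sets (0.880), array weights (1.309) and a random block (1.300), and ran from 1.091 to 1.476 over single arrays left out. That of Ackr3 passed with the replicate block of pairs, fixed or random (1.038 in both). Signs changed for Cxcr4 in the wild-type sort (-0.029 with array weights, -0.015 with quantile normalization, -0.031 without both wild-type arrays numbered 1, and -0.186 to 0.159 over single arrays) and for Ackr3 between negative cells (-0.070 without both, and -0.070 to 0.198). In the mutant sort they changed over single arrays for 1417574_at (-0.206 to 0.041), 1448823_at (-0.446 to 0.015) and 1439084_at (-0.054 to 0.109). The dim probe set also ran from -0.031 to 0.081 in the wild-type sort, and in genotype dependence from -0.085 to 0.078, with 0.005 after median centring and 0.013 after quantile normalization. Counts over all probe sets moved by over 1.5 times: in the wild-type sort from 2018 to 962 without both wild-type arrays numbered 1, 3252 with a random block, and 1272 and 1303 without negative array 1 and 2 of the wild types (1272 to 2013 over single arrays); between positive cells from 1989 to 960 with 2 groups and 1303 without both (1304 to 2095 over single arrays, the lowest without mutant positive array 1); in the mutant sort from 1181 to 565 with 2 groups and 1848 and 1993 with fixed and random blocks (699 to 1191 over single arrays, with 699, 757 and 715 without mutant positive array 2, mutant negative array 2 and mutant negative array 3); in genotype dependence from 573 to 878 and 1060 with those blocks. Between negative cells it went from 0 to 1 without wild-type negative array 3 or mutant negative array 2. In wild types each of 6 arrays correlated best with its own number, a hint from the data and not from the design; with that block the wild-type sort difference of Ackr3 had an adjusted p of 0.00537 (fixed) and 0.00894 (random). Among the brightest probe sets, the block of pairs changed only the genotype dependence calls given above, for Ackr3 (fixed or random) and Cxcl12 (random). A fixed block of pairs was not run between genotypes, where it cannot be fitted, and the 2-group fit was not run for genotype dependence. Of 36 pathway calls, 18 were kept under every setting run and 0 changed sign.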

Other observations

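Further marker lists were read as the mean log2 value per array. Macrophage markers (6 genes), whose cells carry many chemokine receptors, lay at 6.58 to 6.76 on all 12 arrays. Of the 6, Csf1r (group means 8.22 to 8.49), Fcgr1 (7.45 to 7.64) and Adgre1 (7.42 to 7.57) lay above the array medians in every group, and Cx3cr1, Ptprc and Cd68 below. Arterial markers (8 genes) lay at 9.07 to 9.24 in wild-type positive cells and at 8.16 to 8.71 elsewhere, and venous markers (5 genes) at 11.04 to 11.12 against 9.53 to 10.43. These means did not hold for every gene. In the wild-type sort 3 of 8 arterial and 2 of 5 venous genes passed, all higher. Between positive cells 2 of 8 and 1 of 5 passed, all lower in the mutant. The means of Nrp1, Unc5b, Hey2 and the venous gene Nr2f2 were higher in mutant positive than in wild-type positive cells. Somite markers (7 genes) lay at 8.17 to 8.48 in positive cells of both genotypes and at 9.30 to 9.70 in negative cells. Visceral endoderm markers (6 genes) lay at 5.80 to 6.09 in wild-type positive and 7.79 to 8.54 in negative cells, and spread from 5.87 to 9.54 over the mutant positive arrays.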
